A study of Homo sapiens with 4 samples.

Results

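The replication-dependent histone genes encode the bulk of the core histones H2A, H2B, H3 and H4 and of the linker histone H1. They were taken from the deposited count table by symbol, as the genes named H1-1 to H1-6 and those named H2AC, H2BC, H3C or H4C followed by a number. This rule found 69 of the 62700 genes in the table: 6 of type H1, 17 of H2A, 18 of H2B, 13 of H3 and 15 of H4. With 10 or more counts in at least 2 of the 4 libraries, 49 of them passed the minimum set for comparisons (3, 14, 12, 9 and 11 by type, in that order), and the other 20 did not.

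The RNA came from HEK293T cells, which the labels call a stable clone derived from HEK 293, a human embryonic kidney line. The genotype in all 4 libraries was CMV-V5-MITO-PRADA, a construct directed to the mitochondrial matrix. Common to all libraries were 5 h with 100 µM s4U (4-thiouridine, which is built into RNA in place of uridine) and a further 30 min with s4U and 0.5 mM alkyne phenol. In the 2 labelled libraries, 10 mM D-amino acid was then given for 30 min, and in the 2 unlabelled libraries it was left out. The material is described as labelled and enriched, and as depleted of ribosomal RNA. The titles number the libraries of each group as biological replicates 1 and 2. Nothing says that they came from separate cultures, so a p-value below sets a difference against the spread of these libraries only, and that spread may be technical. Fewer cells in S phase and less histone mRNA in each such cell cannot be told apart in these bulk samples.

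Assigned fragments numbered 8172347 and 5771795 in unlabelled replicates 1 and 2, and 9380258 and 12287451 in labelled replicates 1 and 2, the order in which values are given throughout. Genes of the mitochondrial chromosome took 9.04% and 10.4% of these in the unlabelled libraries, against 27.0% and 30.9% with labelling. A count of 3 corresponded to 0.244 to 0.520 counts per 1000000 assigned fragments. Of 12 genes listed as markers of the HEK293 line, 11 were tested, among them VIM at 179 to 216 and LIN28B at 113 to 142 counts per 1000000 (CPM), and KRT19 had 0 counts in all 4 libraries. Among markers of blood cells, PTPRC had at most 1 count in any library, and CD3E and HBB had 0 in all 4. Summed markers of fibroblasts and endothelium reached 13.7 to 22.3 CPM, mostly COL1A1, with COL1A2 and DCN at 0. CPM here are scaled by TMM, a normalization that sets the libraries to a common level for most genes.

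As background, these genes are transcribed in S phase, when new DNA has to be packed into nucleosomes, and they lie in clusters. Most of their mRNAs have no intron and no poly(A) tail. They end shortly after a conserved stem-loop, which is bound by the stem-loop binding protein SLBP and cut by a complex that contains the U7 small nuclear RNA. The same stem-loop is used in the translation and, when replication stops, in the rapid decay of the mRNA.

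The stem-loop is shown first because it is the feature that marks these mRNAs and that libraries made without poly(A) selection can hold. It was searched for in the transcripts of GENCODE 29 as 6 paired bases, a loop of 4 bases and the matching 6 bases, 16 in all. The first 6 had to read GGYYYT, where Y is C or T, so other stems were not searched for. Of 65 members with a transcript there, 28 held one. Of the 37 without, 32 had only a coding sequence as their transcript, so the missing match says only that the letters are not in the annotated transcript. The search found 5 distinct forms, and the sites below show each of them with 5 bases on either side, 5′ to 3′ in DNA letters, with the stem-loop in capitals.
H2BC21: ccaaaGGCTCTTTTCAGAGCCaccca
H2BC5: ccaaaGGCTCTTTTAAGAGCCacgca
H3C6: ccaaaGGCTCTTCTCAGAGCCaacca
H4C5: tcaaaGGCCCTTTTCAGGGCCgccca
H4C9: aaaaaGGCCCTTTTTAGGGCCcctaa

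The form of H2BC21 was the most frequent, with 15 members of types H2A, H2B and H3, among them H2AC6 and H3C10, and that of H2BC5 was found in 4. The form of H3C6, with the loop TCTC where the loops of the others begin with TTT, was found in 1 member. The H4 genes used other stems: all 8 stem-loops with GGCCC as the first bases were in H4 genes, 5 in the form of H4C5 and 3 in the form of H4C9. A stem-loop was found in 24 of 46 members past the minimum and in 4 of 19 under it. The stem-loop alone did not part abundant members from rare ones: H4C5 had 9634 fragments in all and H4C9 had 15.

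Promoters are shown because members of one type ranged from hardly any or no fragment to among the most abundant. Of the pairs printed below, only that of H4 lies within a single cluster. The RefSeq promoter table (GRCh38.p14) matched 64 of the 69 members, and each stretch below is the 150 bases upstream of the annotated start. Capitals mark matches on either strand to ATTTGCAT, an octamer known from H2B promoters, to CCAAT, to TATAAA, to AAACACA, a box known from H1 promoters, and to GGTCC, known from H4 promoters. Matches may overlap. The pairs are an abundant and a nearly silent member of type H1 (H1-4 with 14889 fragments, H1-5 with 1), H2B (H2BC12 with 11267, H2BC10 with 1) and H4 (H4C5 with 9634, H4C6 with 0). They lie at chr6:26156179-26156328, plus strand, at chr6:27867589-27867738, minus strand, at chr6:27146856-27147005, minus strand, at chr6:26272781-26272930, plus strand, at chr6:26204460-26204609, plus strand and at chr6:26240243-26240392, plus strand.
H1-4: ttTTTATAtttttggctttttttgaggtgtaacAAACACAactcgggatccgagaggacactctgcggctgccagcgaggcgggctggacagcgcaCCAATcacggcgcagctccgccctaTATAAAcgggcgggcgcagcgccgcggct
H1-5: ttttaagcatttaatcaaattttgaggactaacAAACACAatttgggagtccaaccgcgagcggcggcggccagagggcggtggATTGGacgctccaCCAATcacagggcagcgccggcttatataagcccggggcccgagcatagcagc
H2BC12: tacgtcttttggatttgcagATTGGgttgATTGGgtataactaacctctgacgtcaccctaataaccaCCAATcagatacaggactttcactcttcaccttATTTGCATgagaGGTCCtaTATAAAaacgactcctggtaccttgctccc
H2BC10: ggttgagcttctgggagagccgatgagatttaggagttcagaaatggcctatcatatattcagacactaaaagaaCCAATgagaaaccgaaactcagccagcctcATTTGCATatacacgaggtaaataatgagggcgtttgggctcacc
H4C5: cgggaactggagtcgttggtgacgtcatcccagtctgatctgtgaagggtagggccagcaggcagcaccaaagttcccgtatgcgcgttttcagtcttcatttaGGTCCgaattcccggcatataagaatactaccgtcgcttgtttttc
H4C6: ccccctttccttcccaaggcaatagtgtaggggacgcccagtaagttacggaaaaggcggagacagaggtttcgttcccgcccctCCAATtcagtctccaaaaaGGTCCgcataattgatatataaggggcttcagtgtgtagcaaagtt

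Over the 250 bases upstream of the start, the motifs followed the histone type. AAACACA was found in all 6 H1 promoters and in no other member, against 4.82% of 35116 promoters in the table. ATTTGCAT was found in 11 of 16 H2A and 14 of 18 H2B promoters and in none of the other types, against 1.63% of all promoters. H2A and H2B genes that lie head to head share upstream bases, so the same site can count for both genes. Their counts are therefore not independent, for this and the other motifs. CCAAT was found in all H1, H2A, H2B and H3 promoters matched, but in 3 of 13 H4 promoters, against 32.0% of all. TATAAA was found in 43 of the 64, against 10.7% of all. GGTCC was found in 12 of 13 H4 promoters and in 21 of 64 members, against 40.7% of all. Among the printed pairs, H1-4 and H1-5 both carried AAACACA and CCAAT, H2BC12 and H2BC10 both the octamer and CCAAT, and H4C5 and H4C6 both GGTCC. The pairs differed in TATAAA, which the stretches of H1-4 and H2BC12 held and those of H1-5 and H2BC10 did not. They also differed in GGTCC, which H2BC12 held and H2BC10 did not, and in CCAAT, which H4C6 held and H4C5 did not. In type H2B the octamer was in 8 of 12 promoters past the minimum and in 6 of 6 under it. In type H4, CCAAT was in 0 of 9 past the minimum and in 3 of 4 under it. TATAAA was in 8 of 8 H3 promoters past the minimum and in 1 of 3 under it. In the other types TATAAA was about as frequent past the minimum as in all promoters matched, apart from H1. It was in 8 of 12 H2B promoters past the minimum and 12 of 18 in all. For H2A these were 10 of 13 and 12 of 16, for H4 5 of 9 and 7 of 13, and for H1 2 of 3 and 3 of 6. These splits are descriptions of few genes and were not tested.

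Together the members took 0.752% (95% Wilson interval 0.746 to 0.758) and 0.585% (0.579 to 0.591) of assigned fragments in the unlabelled libraries and 0.530% (0.525 to 0.534) and 0.518% (0.514 to 0.522) in the labelled libraries. Intervals cover counting error only, as no molecular identifiers tell copies of a molecule apart. The means were 0.668% ± 0.118 (SD, n = 2) and 0.524% ± 0.00812 (SD, n = 2), the groups did not overlap, and the two-sided exact permutation p was 0.33, the smallest that 2 against 2 libraries allow. Both unlabelled libraries were higher, by an amount close to the gap between them. Mitochondrial RNA took a larger part of the labelled libraries, so the share was also taken of nuclear genes alone. There it was 0.827% and 0.653% without labelling and 0.726% and 0.750% with it, means of 0.740% ± 0.123 and 0.738% ± 0.0174 (SD, n = 2, exact permutation p = 1). On that base the labelled libraries lay between the unlabelled ones.

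The 5 types took similar shares of the histone fragments in each library, apart from H4 in labelled replicate 2. H2B made up 33.0% and 30.9% in the unlabelled libraries against 30.1% and 30.2% in the labelled ones (exact permutation p = 0.33), and this was the only type whose groups did not overlap. H2A made up 22.0% to 23.7%, H1 13.8% to 15.1% and H3 13.2% to 14.3%. H4 made up 16.4% and 17.2% in the unlabelled libraries, 16.7% in labelled replicate 1 and 20.3% in labelled replicate 2 (exact permutation p = 0.667). Levels between genes were compared as CPM per kilobase of annotated exon. On this scale the summed level was 1895 to 2648 for H2A, 1884 to 2691 for H4, 1713 to 2448 for H2B, 1149 to 1465 for H3 and 986 to 1243 for H1. The ranges of H2A, H2B and H4 overlapped each other and lay above those of H3 and H1. Gene models with long annotated exons, such as H2BC26 with 5002 bases against 386 for the shortest member, understate the level per kilobase of a short histone mRNA.

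A few genes carried each type. Shares here are of fragments summed over the 4 libraries, in which deeper libraries weigh more. The 3 genes with the most fragments held 99.9% of those of H1, 83.2% of H3, 65.5% of H4, 57.3% of H2A and 55.1% of H2B. Over all types, 10 genes held 56.1%.

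**Figure D1:**
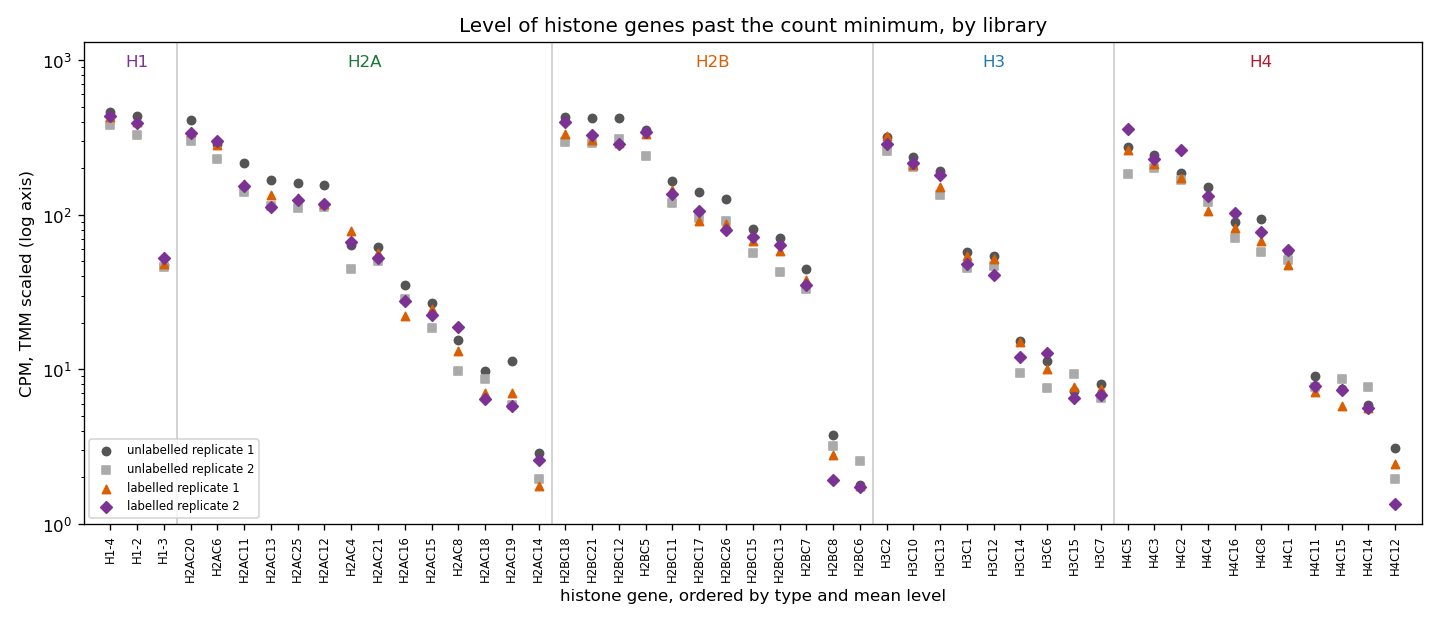
The plot gives the level of each of the 49 histone genes past the count minimum (TMM-scaled CPM, log axis) with 1 point for each of the 4 libraries. Within each type the genes are ordered by mean CPM. Unlabelled replicate 1 is the highest point for many genes and unlabelled replicate 2 the lowest.

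The H1 mRNAs were nearly all from 2 genes for linker histones, which bind DNA where it enters and leaves the nucleosome. H1-4 (chr6:26156329-26157115, GRCh38) was at 463 and 378 CPM in the unlabelled libraries against 429 and 437 in the labelled ones. H1-2 (chr6:26055740-26056470) was at 434 and 326 against 397 and 389 CPM. Per kilobase they averaged 542 and 529, and in both genes the labelled libraries lay between the unlabelled ones. H1-3 (chr6:26234212-26234987) averaged 62.2 per kilobase, with 47.0 and 45.9 CPM in the unlabelled libraries against 48.0 and 52.1 in the labelled ones. The 3 other H1 genes were under the minimum: H1-1 with 10 fragments in all libraries together, H1-6, a testis histone, with 8, and H1-5 with 1.

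Among the H2A genes, H2AC20 (chr1:149886918-149887411) had the highest level per kilobase, 703, with 409 and 298 CPM in the unlabelled libraries against 344 and 338 in the labelled ones. H2AC11 (chr6:27133043-27133535) followed with 339 per kilobase, at 216 and 141 against 159 and 154 CPM. H2AC12 (chr6:27147106-27147562) averaged 275 per kilobase, at 155 and 113 against 117 and 118 CPM. In all 3, unlabelled replicate 1 was the highest and unlabelled replicate 2 the lowest library. H2AC4 (chr6:26033092-26033618) had 63.7 and 44.7 CPM in the unlabelled libraries against 78.5 and 66.6 in the labelled ones, and its groups did not overlap. H2AC16 (chr6:27865317-27865798) had 35.2 and 28.4 against 22.2 and 27.5 CPM, with the labelled libraries lower. The other 9 H2A genes past the minimum ranged from 4.83 per kilobase for H2AC14 to 266 for H2AC13. H2AC1, a testis histone, had 0 counts.

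Among the H2B genes, H2BC12 (chr6:27146361-27146855) averaged 658 per kilobase, with 420 and 307 CPM in the unlabelled libraries against 290 and 286 in the labelled ones, which were the lower ones. H2BC5 (chr6:26158122-26171349) averaged 369, at 355 and 241 against 331 and 343 CPM, and H2BC17 (chr6:27893425-27893891) averaged 231, at 139 and 95.1 against 91.0 and 106 CPM. In H2BC5 and H2BC17 the groups overlapped. H2BC26 (chr1:228458103-228463104) had 127 and 91.0 CPM in the unlabelled libraries against 86.5 and 79.6 in the labelled ones, and the labelled ones were lower. H2BC18 and H2BC21, with 12735 and 11744 fragments, stood at 201 and 151 per kilobase of their longer models. The lowest past the minimum were H2BC8 with 99 and H2BC6 with 66 fragments.

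Of the H3 genes, H3C2 (chr6:26031589-26032099) averaged 579 per kilobase, with 320 and 258 CPM in the unlabelled libraries against 322 and 285 in the labelled ones. H3C13 (chr1:149813225-149813693) averaged 351, at 193 and 134 against 151 and 180 CPM, and H3C10 (chr6:27810051-27811300) averaged 173, at 236 and 204 against 209 and 216 CPM. In none of the 3 were the groups apart. H3C12 (chr6:27890315-27893106) had 53.9 and 46.6 against 51.4 and 40.9 CPM, and H3C6 (chr6:26224199-26227473) 11.2 and 7.54 against 10.0 and 12.7 CPM, again with overlapping groups. The other 4 past the minimum, H3C1, H3C14, H3C15 and H3C7, ranged from 14.6 to 101 per kilobase.

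The H4 genes all encode the same or nearly the same small protein, and 3 of them led. H4C5 (chr6:26204610-26205021) averaged 653 per kilobase, with 273 and 183 CPM in the unlabelled libraries against 263 and 358 in the labelled ones. H4C3 (chr6:26103933-26104337) averaged 545, at 244 and 199 against 211 and 228 CPM. H4C2 (chr6:26026896-26027283) averaged 506, at 185 and 167 against 172 and 262 CPM. H4C5 and H4C2 were highest in labelled replicate 2, the library with the larger H4 share, while H4C3 was highest in unlabelled replicate 1. The remaining H4 genes past the minimum ranged from 3.30 per kilobase for H4C14 to 317 for H4C4, and H4C16, which lies alone on chromosome 12, stood at 35.1.

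The 20 members under the minimum held 0.0465% of all histone fragments. The largest total among them was 21 (H2AC17), and the smallest total past the minimum was 66 (H2BC6), followed by H4C12 with 76 and H2AC14 with 81. No count was seen in any library for H2AC1, H2BC1, H3C4, H3C8, H4C6 and H4C7, which allows up to 0.520 CPM of assigned fragments in the shallowest library. Of the 20, 4 share exon bases with another gene, so part of their fragments cannot be assigned: H3C4 and H2AC7 with ENSG00000282988, H2AC17 with H3C12, and H2BC4 with HFE and ENSG00000291336. The other 16 overlap no gene in the table. Of 19 with a GENCODE 29 transcript, 16 shared no stretch of 100 bases with another gene, and H2AC7, H2AC17 and H3C4 shared over 50% of theirs. The part of overlap and shared sequence in the low counts was not tested.

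Past the minimum, 29 of 46 members shared no 100-base stretch with another gene and 9 shared over 50%: H2AC13, H2AC14, H3C13, H3C14, H3C15, H4C11, H4C12, H4C14 and H4C15. Fragments that map to more than 1 place were not counted, so the counts of these 9 are uncertain. H3C14 and H3C15, and H4C14 and H4C15, shared 100% of their stretches, and their totals were 452 and 261, and 210 and 250. Exon bases shared with another gene also make 7 members past the minimum uncertain: H2AC6, H2AC21, H2BC6, H2BC18, H2BC26, H3C12 and H4C8.

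**Figure D2:**
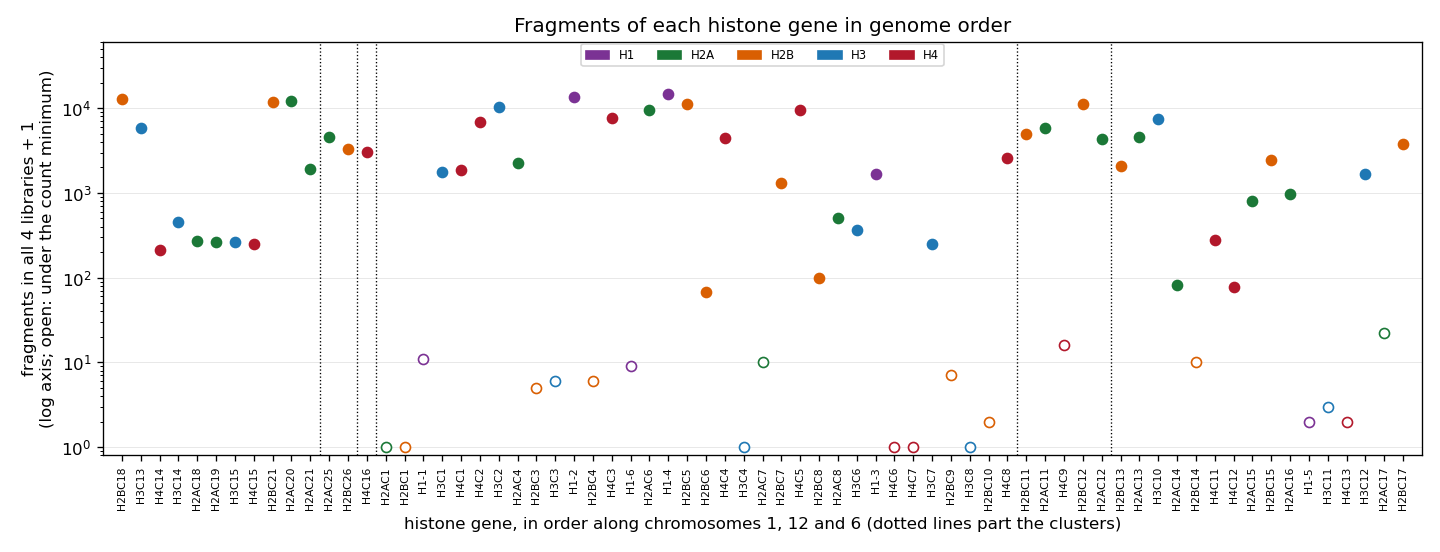
The plot gives the fragments of each of the 69 genes summed over the 4 libraries, plus 1 (log axis), in order along chromosomes 1, 12 and 6, coloured by histone type. Open symbols are the 20 genes under the count minimum, and dotted lines part the clusters. Genes at the bottom stand among the most abundant ones, such as H1-2 with 13501 and H1-4 with 14889 fragments.

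By position, the 34 genes at chr6:25723397-26285638 held 48.4% of the histone fragments, and 20 of them were past the minimum. The 11 at chr1:149782689-149887965 were all past it and held 22.0%. The 5 at chr6:27125897-27147562 and the 16 at chr6:27807479-27893891 held 12.7% and 11.6%, with 4 and 11 past the minimum. The pair H2AC25 and H2BC26, at chr1:228434777-228463104, held 3.77%, and H4C16 held 1.46%. All members under the minimum lie on chromosome 6.

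Of the H2A and H2B genes, 12 pairs lie head to head, with their 5′ ends 170 to 251 bases apart and the promoter region in common. Both genes passed the minimum in 7 pairs. H2AC20 and H2BC21 had 12110 and 11744 fragments, but stood at 703 and 151 per kilobase, with models of 494 and 2224 bases. H2AC12 stood at 275 per kilobase against 658 for H2BC12, while H2AC13 stood at 266 against 130 for H2BC13. In 4 pairs 1 gene alone passed: H2AC6 with 9619 fragments beside H2BC4 with 5, H2BC17 with 3757 beside H2AC17 with 21, H2BC7 with 1304 beside H2AC7 with 9, and H2AC14 with 81 beside H2BC14 with 9. H2BC4, H2AC17 and H2AC7 are among the genes that share exon bases with another gene, and H2BC14 is not. In the last pair, H2AC1 and H2BC1, both had 0 counts.

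The contrast between labelled and unlabelled libraries asks which RNA is enriched once the D-amino acid starts the labelling at the construct. No histone gene passed the test: with edgeR's quasi-likelihood test, adjusted over 18973 genes, 0 of 49 members were higher and 0 were lower in the labelled libraries. Among all genes tested, 0.269% were called higher and 0.0158% lower, so a count of 0 among 49 is near that background. The adjusted p of the members ran from 0.382 to 0.997. At an unadjusted p under 0.05, 2 were higher and 2 lower, against 5.67% and 5.88% of all genes. DESeq2 also called 0 and 0, with 2 members at an unadjusted p under 0.05 (all genes called: 0.327% higher, 0.0614% lower).

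The median log2 fold change of the 49 was -0.05, with a range from -0.58 to 0.44 and a median standard error of 0.17, beside -0.01 for all genes tested. It was positive for 18 and negative for 31. By type the median was 0.05 for H1, -0.13 for H2A, -0.13 for H2B, -0.01 for H3 and -0.08 for H4. These values are relative to the TMM level. Without TMM the median of all genes moves to -0.37 and that of the members to -0.40.

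The member with the smallest p was H2BC26, at -0.39 ± 0.16 (log2 fold change ± SE, edgeR adjusted p = 0.382). H2AC4, at 0.41 ± 0.17 (adjusted p = 0.384), and H2AC16, at -0.36 ± 0.16 (adjusted p = 0.417), came next. H4C5 was at 0.44 ± 0.20 (adjusted p = 0.429), and was highest in labelled replicate 2. H2BC12 was at -0.33 ± 0.17 (adjusted p = 0.470) and H4C2 at 0.30 ± 0.18 (adjusted p = 0.547). None of these passed the threshold. In the other types the smallest adjusted p was 0.694 for H3C6, at 0.26 ± 0.24, and 0.760 for H1-3, at 0.11 ± 0.12. Of the members with the highest level per kilobase in each type, H2BC12 and H4C5 are given above, and H1-4 was at 0.04 ± 0.16, H2AC20 at -0.05 ± 0.17 and H3C2 at 0.07 ± 0.16, with adjusted p of 0.947, 0.938 and 0.898.

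Both labelled libraries lay above both unlabelled ones in 2 of 49 members (H1-3 and H2AC4), against 22.2% of all genes tested, and below both in 8, against 22.4%. The 8 were H2AC16, H2AC18, H2BC6, H2BC8, H2BC12, H2BC26, H4C14 and H4C15. In the other 39 the groups overlapped.

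The 2 unlabelled libraries differed from each other in nearly all histone mRNAs. Unlabelled replicate 2 was below unlabelled replicate 1 in 45 of 49 members, against 50.0% of all genes tested, and by over 0.25 on the log2 scale in 37, against 24.5%. The median difference was -0.45 (range -0.91 to 0.47) for the members and near 0 for all genes. It was -0.51 for H2A, with 14 of 14 lower, -0.49 for H2B, with 11 of 12, -0.31 for H3, with 8 of 9, -0.29 for H4, with 9 of 11, and -0.29 for H1, with 3 of 3. The exceptions were H2BC6, H3C15, H4C14 and H4C15, all of them rare or shared in sequence with another gene. In all 5 types and in each cluster the median was lower in unlabelled replicate 2, from -0.51 to -0.32 in the chromosome 6 clusters and at -0.46 and -0.50 in those of chromosome 1.

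The labelled libraries resembled each other. Labelled replicate 2 was below labelled replicate 1 in 24 of 49 members, against 49.7% of all genes, and the median absolute difference was 0.138 on the log2 scale, where it was 0.454 between the unlabelled libraries. For all genes the same 2 values were 0.141 and 0.257. H4 was the exception, with 9 of 11 members higher in labelled replicate 2 and a median difference of 0.31. Relative to unlabelled replicate 1 the members had a median of -0.24 in labelled replicate 1 and -0.19 in labelled replicate 2. Both labelled libraries lay between the unlabelled ones in 22 of 49 members, against 21.3% of all genes.

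**Figure D3:**
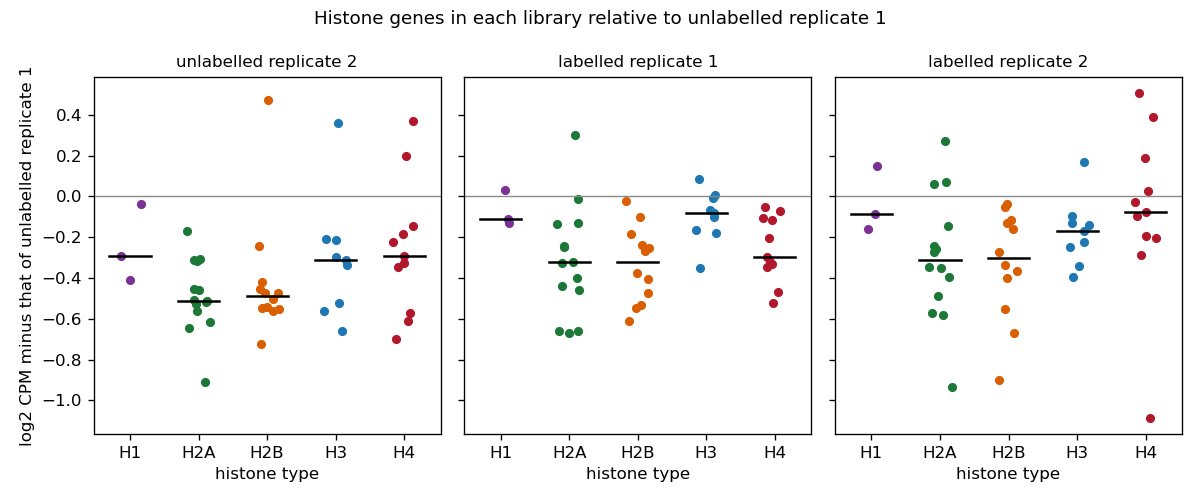
The 3 panels give the log2 CPM of each tested histone gene in unlabelled replicate 2, labelled replicate 1 and labelled replicate 2 minus its log2 CPM in unlabelled replicate 1, by histone type. Black bars are medians. Most points of unlabelled replicate 2 lie below 0, at a median of -0.45 over all 49, and the labelled libraries lie between, at -0.24 and -0.19.

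The direction of the contrast changed with the unlabelled library that was used. Without unlabelled replicate 1, 15 members were higher and 0 lower in the labelled libraries (all genes called: 11.6% higher, 7.37% lower), with a median of 0.17 and 38 of 49 positive. Without unlabelled replicate 2, 0 were higher and 12 lower (all genes called: 2.06% higher, 2.55% lower), with a median of -0.19 and 8 of 49 positive. In both fits the single unlabelled library left is assumed to vary like the labelled group. H4C5 was at 0.79 (adjusted p = 2.81e-10) and H2AC4 at 0.73 (adjusted p = 5.51e-08) without unlabelled replicate 1. H2BC26 was at -0.60 (adjusted p = 2.07e-07) and H2BC12 at -0.54 (adjusted p = 2.82e-05) without unlabelled replicate 2. Without labelled replicate 1, 0 members were called in either direction (all genes: 0.367% higher, 0.082% lower), and likewise without labelled replicate 2 (0.236% and 0.0434%). By type, the 15 were 1 H1, 3 H2A, 5 H2B, 2 H3 and 4 H4 genes, and the 12 were 6 H2A, 4 H2B and 2 H4 genes.

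Only H4C8 was called in both of these fits, and in opposite directions. It was at 0.36 ± 0.11 (adjusted p = 0.0122) without unlabelled replicate 1 and at -0.37 ± 0.10 (adjusted p = 0.0120) without unlabelled replicate 2. Its levels were 93.7 and 57.6 CPM in the unlabelled libraries against 67.5 and 76.8 in the labelled ones, so the labelled libraries lay between.

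**Figure D4:**
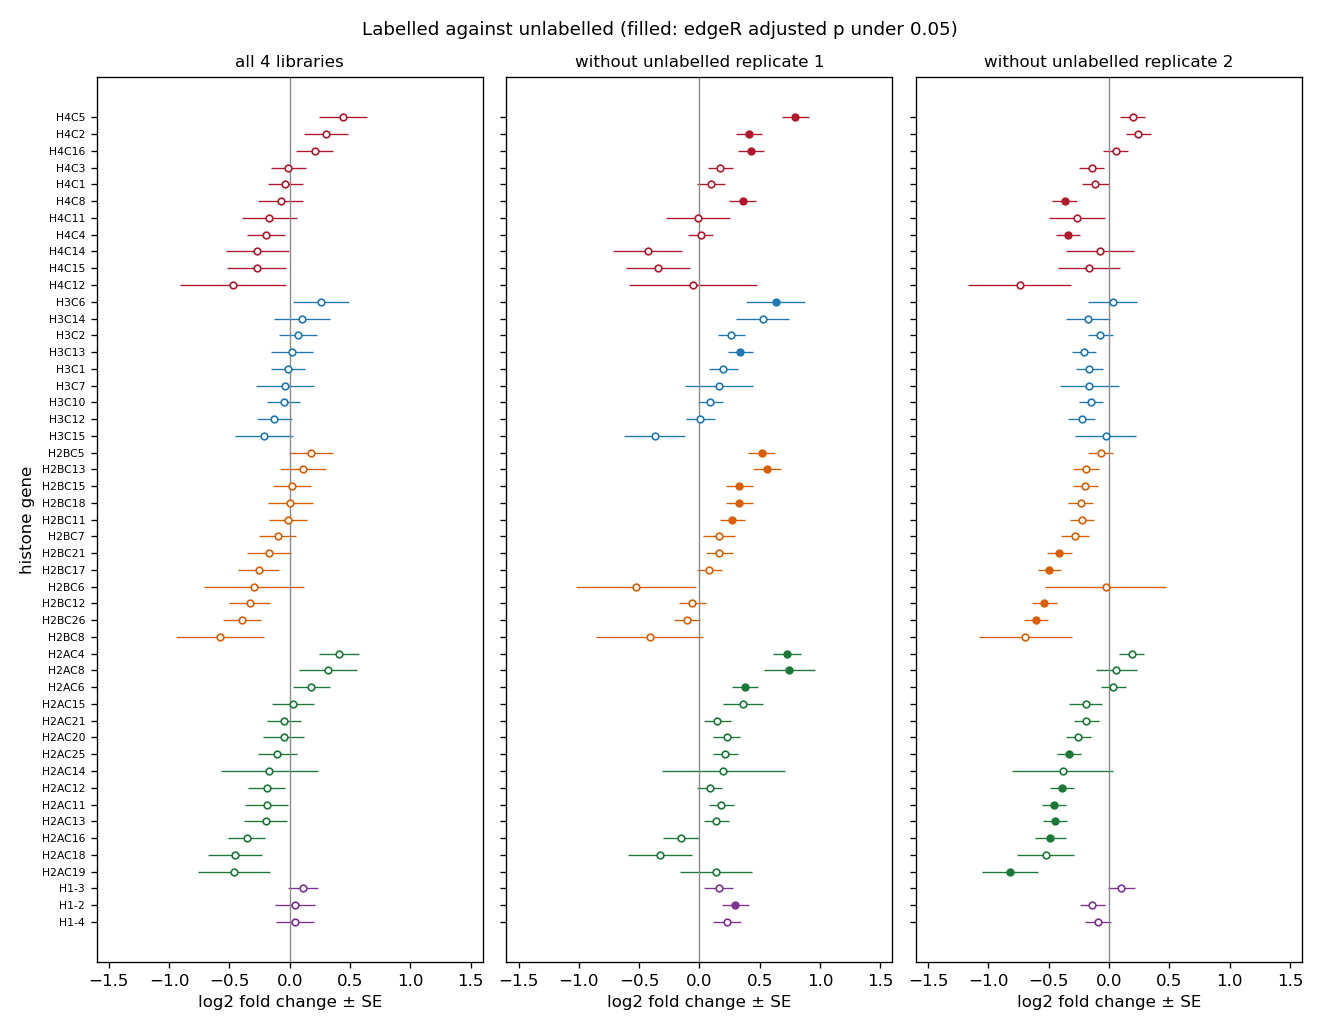
The 3 panels give the log2 fold change of labelled against unlabelled libraries ± SE (edgeR) for each of the 49 histone genes, in all 4 libraries and without each unlabelled library, coloured by type. Filled symbols have an adjusted p under 0.05: there are none in the first panel, 15 in the second, all to the right of 0, and 12 in the third, all to the left.

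Other measures moved with the unlabelled libraries. Unlabelled replicate 2 was the shallowest library, and the RN7SL genes of the signal recognition particle RNA took 2.89% of its fragments, against 1.64% in unlabelled replicate 1 and 1.05% and 1.08% in the labelled libraries. Multi-mapping alignment records per assigned fragment were 2.77 and 1.24 in the unlabelled libraries against 0.646 and 1.30 in the labelled ones, highest in unlabelled replicate 1. Records in no annotated exon were 0.685 and 1.05 per assigned fragment against 0.546 and 0.495, highest in unlabelled replicate 2. Over 12435 genes with a mean of at least 5 CPM, the difference between the unlabelled libraries went with the GC content of the transcript at a Spearman rho of -0.31 across genes, which share the same 2 libraries and are not independent replicates. The median GC content was 57.3% for 42 members and 48.0% for all of these genes. The rho was 0.21 within the members and -0.05 across genes for the log2 fold change between groups. Members with models under 900 bases had a median difference of -0.42 between the unlabelled libraries and longer ones of -0.47. Of the 11 tested markers of the HEK293 line, 10 were also lower in unlabelled replicate 2, with a median difference of -0.49. The part of depth, RN7SL, record types and GC content in the difference was not tested.

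The genes of S phase and mitosis were set beside the histones, because the histone mRNAs depend on the cell cycle. Of 36 genes for replication, 28 were lower in unlabelled replicate 2, with a median difference of -0.19, and of 20 mitotic genes 13 were, with a median of -0.23. Between the groups 0 of the 36 and 0 of the 20 passed the test, with medians of 0.16 and 0.15 on the log2 scale. PCNA, the clamp that holds DNA polymerase on DNA, had 179 and 150 CPM in the unlabelled libraries against 200 and 228 in the labelled ones (0.38 ± 0.14, adjusted p = 0.368). RFC2, a subunit of the clamp loader, was at 0.35 (adjusted p = 0.336) and RPA2, which binds single-stranded DNA, at 0.36 (adjusted p = 0.384). Among the mitotic genes, the kinase PLK1 had 129 and 101 against 141 and 183 CPM (0.50 ± 0.16, adjusted p = 0.309). The spindle factor TPX2 was at 0.39 (adjusted p = 0.382) and the kinase AURKA at 0.33 (adjusted p = 0.403). Both labelled libraries were above both unlabelled ones in 18 of the 36 replication genes and 9 of the 20 mitotic genes, these 6 among them, against 22.2% of all genes tested, and below both in 2 and 2, against 22.4%. The part of cell cycle stage in the difference between the unlabelled libraries was not tested.

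The replacement histones, which are made outside S phase as well and mostly from polyadenylated mRNAs, gave 0 calls among 11 tested of 15 listed. Their median log2 fold change was 0.11, and 9 of 11 were lower in unlabelled replicate 2, with a median of -0.24. H3-3B, which encodes H3.3, had 365 and 283 CPM in the unlabelled libraries against 445 and 490 in the labelled ones (0.53 ± 0.17, adjusted p = 0.303). Both labelled libraries were above the unlabelled range, without passing the test. MACROH2A1 was at -0.27 ± 0.14 (adjusted p = 0.481). Per kilobase, H2AZ1 and H2AX averaged 155 and 154 and H3-3B 64.5, beside 542 to 703 for the highest member of each of H1, H2A, H2B, H3 and H4. This scale divides by all annotated exon bases, so it sets genes with long models lower, and the order depends on it. In CPM, H3-3B was above H3C2, the highest H3 member per kilobase, which had 320 and 258 CPM in the unlabelled libraries against 322 and 285 in the labelled ones.

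Of 39 genes for histone transcription and mRNA processing, 0 passed the test, 5 were higher and 0 lower at an unadjusted p under 0.05 (all genes: 5.67% and 5.88%), and the median log2 fold change was 0.05. SLBP, named here for its role and outside the rule for named genes, had 93.8 and 85.1 CPM in the unlabelled libraries against 105 and 103 in the labelled ones (0.22 ± 0.13, adjusted p = 0.521). The 3 with the smallest p were NELFA, a subunit of the negative elongation factor, at 0.54 ± 0.16 (adjusted p = 0.289), SRRT, or ARS2, which acts with the cap-binding complex, at 0.43 ± 0.16 (adjusted p = 0.362), and the kinase CDK2 at 0.35 ± 0.15 (adjusted p = 0.413). In unlabelled replicate 2, 23 of the 39 were lower, with a median of -0.08.

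Of 31 histone chaperones and import factors, 0 passed the test, and 7 were higher and 2 lower at an unadjusted p under 0.05 (all genes: 5.67% and 5.88%), with a median log2 fold change of 0.11. ANP32E, a chaperone of H2A.Z, had 188 and 185 CPM in the unlabelled libraries against 269 and 270 in the labelled ones (0.53 ± 0.13, adjusted p = 0.191). Its libraries were close within each group, and DESeq2 put it at an adjusted p of 0.0449. Over the alternative fits its adjusted p ran from 7.09e-06 without unlabelled replicate 1 to 1.00 without labelled replicate 2. HIRIP3 was at 0.48 ± 0.14 (adjusted p = 0.288). IPO4, an importin that carries H3 and H4 into the nucleus, had 4.90 and 5.58 against 2.33 and 1.73 CPM (-1.37 ± 0.34, adjusted p = 0.186), a low count in every library.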

How the data were processed

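RNA from HEK293T cells was measured in 2 labelled and 2 unlabelled libraries, grouped and numbered by their titles. Per the file headers, the authors counted fragments per gene with featureCounts 1.6.4 over GENCODE 44 exons, for read pairs with both ends mapped and not chimeric, with no strand option and no multi-mapping reads. Without strand, antisense fragments are counted with the gene, and fragments in exons of 2 genes are left unassigned. Per the submitters' processing notes, STAR 2.7.9a, GRCh38 and DESeq2 1.42.0 were used. Whether duplicate reads were removed is not stated there. Coordinates are those of the deposited count table, counted from 1.

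Counts were tested with edgeR 4.0.16 in R 4.3.3 (filterByExpr, TMM, quasi-likelihood fit, Benjamini-Hochberg adjustment over 18973 genes, threshold 0.05). The 4 libraries entered 1 fit with no block. Each standard error was derived as log2 fold change over the root of F. Differences between single libraries use log2 CPM with a prior count of 2. The script was tested on simulated data. Summed shares were compared with two-sided exact permutation tests, with 6 arrangements. Python 3.11.15, NumPy 2.4.6, pandas 2.3.3, SciPy 1.17.1 and matplotlib 3.10.9 were used. Stem-loops and shared 100-base stretches came from GENCODE 29 transcripts, and promoters from RefSeq (GRCh38.p14).

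The genes and the lists were chosen with earlier results of these data known. Named were, in each type, the 3 genes with the highest mean CPM per kilobase and the 2 with the smallest p, and in each other list the 3 with the smallest p, of which 1 is not reported here. H2BC18, H2BC21 and further genes given for their rank, pair or sequence were picked with their values in view. Of the listed genes, H2BU1 and SPT2 matched no symbol in the table. Alternatives were DESeq2, library size alone, mitochondrial genes left out, other filters, a replicate block, other denominators and leaving out each library. Xenograft material was not analysed here.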

Additional observations from a re-analysis of the deposited data

How the results depend on the processing

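With edgeR, 0 genes higher and 0 lower were also found with mitochondrial genes left out and without either labelled library. The same held with 10 or more counts in 2 libraries as the filter, with no filter, and with DESeq2. Over all genes, calls in both directions together numbered 30 with mitochondrial genes left out, 55 with the 10-count filter and 302 with no filter. With library size alone, 10 genes were lower (14.1% of all genes tested) and the median log2 fold change was -0.40, where that of all genes was -0.37. Leaving out each library in turn gave 0 to 15 genes higher and 0 to 12 lower, with a median of -0.19 to 0.17. The 15 came without unlabelled replicate 1 and the 12 without unlabelled replicate 2. The difference in summed share of all assigned fragments, -0.144 percentage points, became -0.00078 with the TMM effective library size. The cause was not tested. Among nuclear genes it was -0.00189, and it ran from -0.0887 to 0.0850 as each library was left out.

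With the replicate number as a block, 0 histone genes were higher and 0 lower, and the median was -0.04. Over all genes tested that fit called 236, against 54 without the block, both directions together. Libraries with the same number share only that number: their deviations from the group means correlated at -0.0698 over 18973 genes. Of 200 alternative values of the 20 named histone genes, 181 kept their side of the threshold, 19 passed it, and 27 changed sign without a call. Of 150 values of the 15 other named genes, 29 passed it. With the block, NELFA (adjusted p = 0.0347) and IPO4 (adjusted p = 0.0436) passed. Over all alternatives the adjusted p of IPO4 ran from 0.00307 to 1.00 and that of NELFA from 2.67e-12 to 1.00. With 2 libraries a group, differences of the size of the standard errors, a median of 0.17 on the log2 scale, cannot be resolved, and the 20 genes under the minimum were not compared.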
